A study of Homo sapiens with 12 samples.

Results

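The genes described here are 10 components of the core autophagy machinery, taken by gene name from the expression table of 3 prostate cell lines. They were ULK1, BECN1, ATG7, ATG3, ATG12, ATG5, ATG16L1, MAP1LC3B, GABARAPL1 and SQSTM1, or 10 of the 58302 genes in the table, and all 10 passed the filter on low values in every comparison. The study set benign prostate cells against prostate cancer (PCa) cells by RNA-sequencing of 12 libraries, 4 of each line. BPH-1 is a benign prostate epithelial line immortalised with the SV40 large T antigen, DU145 was derived from a brain metastasis of PCa and PC3 from a bone metastasis of PCa. The lines are labelled wild type, no treatment is given, and all were grown in the same serum-containing medium, so each difference is one between established lines of separate origin. The labels number the 4 libraries of a line but do not say whether they came from separate cultures, and p-values therefore measure only the spread between these libraries.

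Macroautophagy encloses cytoplasm in a double membrane, the autophagosome, which then fuses with the lysosome. The ULK1 kinase complex starts the process, and a class III phosphatidylinositol 3-kinase complex that contains BECN1 marks the site of membrane growth with PI3P. A pair of ubiquitin-like reactions follows, in which ATG7 activates both ATG12 and the ATG8 proteins, ATG3 carries the ATG8 proteins to phosphatidylethanolamine, and the ATG12-ATG5-ATG16L1 complex directs that transfer to the membrane. MAP1LC3B (LC3B) and GABARAPL1 are ATG8 proteins. SQSTM1 (p62) binds ubiquitin-tagged cargo and ATG8 proteins and is itself degraded by autophagy, so its protein level is widely used as a readout of flux. Protein, lipidation and flux were not measured here, and mRNA levels do not show them.

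The sequences shown first are the 250 bases upstream of the RefSeq start of 4 members whose window held a motif searched for (GRCh38.p14, written 5′ to 3′ on the strand of the gene, with motif matches in capitals).
ATG3, chr3:112561963-112562212, minus strand: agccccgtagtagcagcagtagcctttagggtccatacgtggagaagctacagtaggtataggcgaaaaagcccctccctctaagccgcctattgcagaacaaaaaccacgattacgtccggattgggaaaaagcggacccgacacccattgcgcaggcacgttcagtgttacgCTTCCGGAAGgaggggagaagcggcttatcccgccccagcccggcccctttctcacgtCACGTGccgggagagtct
ATG5, chr6:106325438-106325687, minus strand: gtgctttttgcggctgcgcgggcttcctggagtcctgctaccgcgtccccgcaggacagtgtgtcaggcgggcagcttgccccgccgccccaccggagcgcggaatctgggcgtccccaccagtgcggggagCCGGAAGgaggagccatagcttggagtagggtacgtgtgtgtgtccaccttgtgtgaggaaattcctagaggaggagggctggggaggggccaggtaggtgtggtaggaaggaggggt
ATG16L1, chr2:233251423-233251672, plus strand: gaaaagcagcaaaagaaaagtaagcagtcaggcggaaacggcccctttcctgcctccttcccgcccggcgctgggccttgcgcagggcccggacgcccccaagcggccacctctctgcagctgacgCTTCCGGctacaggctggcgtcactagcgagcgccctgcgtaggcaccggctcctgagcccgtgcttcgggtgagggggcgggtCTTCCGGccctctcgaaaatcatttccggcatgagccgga
GABARAPL1, chr12:10212627-10212876, plus strand: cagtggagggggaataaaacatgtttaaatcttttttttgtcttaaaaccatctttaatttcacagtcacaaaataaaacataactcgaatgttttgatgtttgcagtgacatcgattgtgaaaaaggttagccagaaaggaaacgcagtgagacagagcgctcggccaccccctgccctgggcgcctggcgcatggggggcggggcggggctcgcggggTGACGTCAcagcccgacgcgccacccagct

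The motifs were searched on both strands in 13 RefSeq windows of the 10 genes (3 for SQSTM1 and 2 for ATG5) and in all 35116 windows of the same length. CACGTG, the E-box core of the CLEAR element that TFEB and TFE3 recognise, occurred in the ATG3 window from base -18 to base -13 and in 6.34% of all windows. The ATG3 window also held an ETS site, CCGGAAG, read on both strands, so that its matches from -76 and from -73 overlapped. CCGGAAG occurred in the ATG16L1 window at -124 and -40, in the ATG5 window at -118, in a BECN1 window at -159 and in 8.52% of all windows. TGACGTCA, a cAMP response element, lay at -30 in the GABARAPL1 window and in 1.65% of all windows. The forkhead site TGTTTAC was in none of the 13 windows and in 2.98% of all windows. Letters in a window describe the sequence only and do not show that a factor binds there.

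Stretches of the coding sequence of MAP1LC3B are shown beside those of MAP1LC3B2, because reads from one can be counted for the other. Both coding sequences are 378 bases long in GENCODE 29 (transcripts ENST00000268607.9 and ENST00000556529.2) and 99.5% identical. They differ by C30G and A338G only, with positions counted from the first coding base and the MAP1LC3B base given first, and capitals mark these bases in the stretches from base 1 to 60 and from base 308 to 368.
MAP1LC3B, bases 1 to 60: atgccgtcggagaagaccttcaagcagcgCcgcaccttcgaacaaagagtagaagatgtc
MAP1LC3B2, bases 1 to 60: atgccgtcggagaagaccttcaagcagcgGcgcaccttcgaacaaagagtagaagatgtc
MAP1LC3B, bases 308 to 368: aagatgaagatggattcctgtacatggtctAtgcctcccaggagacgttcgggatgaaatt
MAP1LC3B2, bases 308 to 368: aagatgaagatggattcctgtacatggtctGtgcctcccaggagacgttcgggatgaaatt

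The 12 libraries held between 12950665 and 16309559 reads, as recovered from the steps between low values, and values were compared as deposited, in FPKM (fragments scaled to gene length and to library depth). The FPKM of all genes summed to 243707 to 249733 in BPH-1, against 289756 to 302456 for DU145 and 293492 to 306698 for PC3. Genes of low GC content (under 42%) deviated from the other libraries of their line by a median of -0.31, 0.55, -0.59 and 0.35 (log2) in DU145 replicates 1 to 4 and by 0.33, 0.23, -0.11 and -0.45 in PC3 replicates 1 to 4, but by at most 0.0747 in either direction in BPH-1. Of 5 epithelial markers, all 5 had a mean FPKM of at least 1 in BPH-1, 3 in PC3 and 2 in DU145, where KRT8 and KRT18 were present while EPCAM was 0.166 to 0.573 and CDH1 0.0851 to 0.297. The luminal marker KLK3 was 0 in every library, and KLK2 was at most 0.0114 FPKM. The leukocyte marker PTPRC was 1.35 and 1.25 FPKM in DU145 replicates 1 and 2, 0 in replicates 3 and 4, 1.15 to 1.54 in BPH-1 and 0 in PC3. CD14, a second leukocyte marker, was at most 0.884 FPKM and CD3E was 0 in all libraries. The 4 fibroblast and smooth muscle markers summed to at most 4.66 FPKM, and the 3 endothelial markers to at most 2.28 FPKM. DU145 results are therefore also given without replicates 1 and 2 and without replicates 3 and 4 where the call changed. The part of these features in the results was not tested, except for GC content, for which values with each library's GC trend divided out are also given.

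SQSTM1 stood above the other 9 genes in every line, and below it the order of the levels differed between lines. Its lowest library was 15.4 FPKM in BPH-1, 52.2 in DU145 and 34.6 in PC3, and no library of the next gene reached these values. In BPH-1 the order went on with ATG3, MAP1LC3B, ATG5, BECN1, ATG16L1, ULK1, ATG12, GABARAPL1 and ATG7, and each of these overlapped its neighbour. In DU145 it was MAP1LC3B, ULK1, BECN1, GABARAPL1, ATG3, ATG16L1, ATG7, ATG12 and ATG5, again with overlaps throughout. In PC3 it was ATG16L1, ATG3, ULK1, MAP1LC3B, ATG7, BECN1, ATG12, ATG5 and GABARAPL1, with gaps only below ATG7 and below BECN1. ATG5 was at rank 4 in BPH-1, rank 10 in DU145 and rank 9 in PC3. The deposited FPKM were made with the sum of all distinct exons as gene length. With merged exons ATG5 would stand at rank 7 in BPH-1 and at rank 10 in both PCa lines, and GABARAPL1 at rank 2 instead of 5 in DU145.

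**Figure D1:**
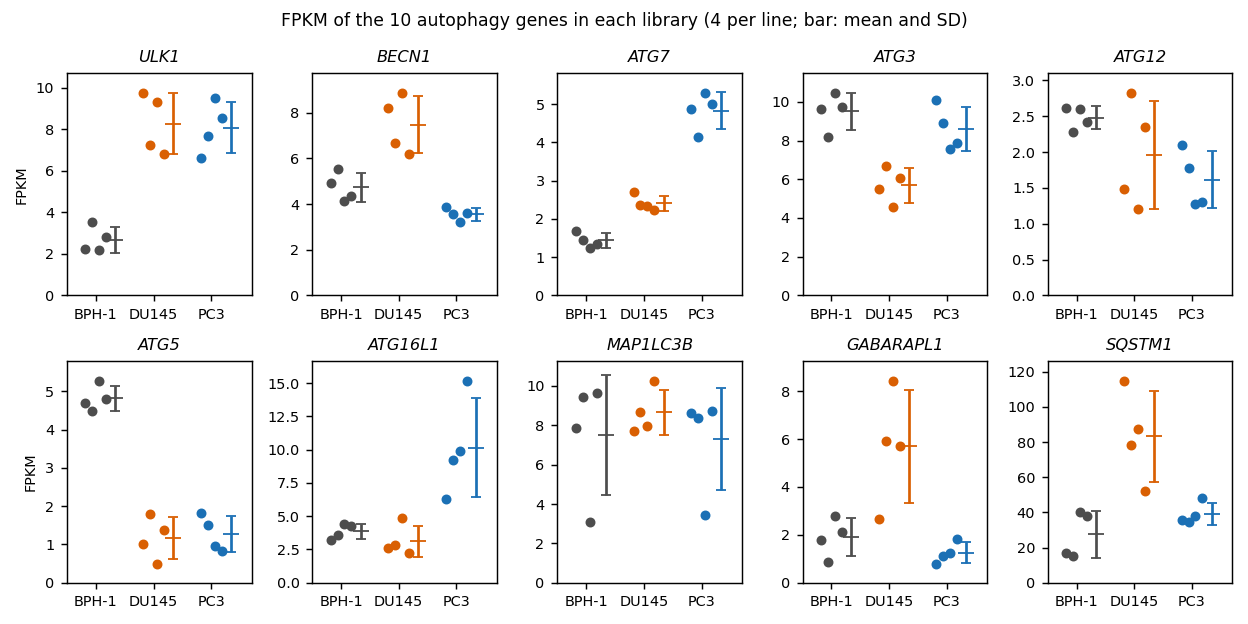
FPKM of each of the 10 genes (y axis, linear from 0) in the 4 libraries of BPH-1, DU145 and PC3 (points, replicates 1 to 4 from left to right), with the mean and SD beside them. ATG5 sits between 4.49 and 5.27 in BPH-1 and at most at 1.82 in the other lines, ULK1 is at most 3.52 in BPH-1 and at least 6.63 elsewhere, and 1 library each of BPH-1 and PC3 lies low for MAP1LC3B.

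Of the 10 genes, 6 passed the test in PC3 against BPH-1 (3 higher, 3 lower), 7 in DU145 against BPH-1 (5 higher, 2 lower) and 6 in PC3 against DU145 (3 higher, 3 lower). The test was limma on log2(FPKM + 1), with a Benjamini-Hochberg adjusted p under 0.05 over all genes tested. Over all genes tested, 67.6% passed in PC3 against BPH-1 (27.1% higher, 40.4% lower), 62.7% in DU145 against BPH-1 (30.3% higher, 32.4% lower) and 48.3% in PC3 against DU145 (20% higher, 28.4% lower). The 10 genes, with 60%, 70% and 60% called, lay near this background. The libraries of the lines did not overlap for 6 of the 10 genes in each comparison, against 64.4%, 59.5% and 46.5% of all genes tested. The median absolute log2 fold change of the 10 genes was 0.51, 0.61 and 0.65, beside 0.54, 0.59 and 0.45 for all genes. With upper-quartile scaling 4 of the 10 genes were higher and 1 lower in PC3 than in BPH-1 (all genes, 32.1% and 35.9%), and with median-of-ratios scaling 3 were higher and 1 lower (31.8% and 36.1%). Rescaling libraries to the same sum left 3 higher and 2 lower in DU145 against BPH-1 (24.3% and 38.6%). Both comparisons against BPH-1 use the same 4 BPH-1 libraries, so their values are only set side by side here.

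ULK1, the kinase that initiates autophagy (GRCh38 chromosome 12, 131894651 to 131923167, plus strand), was about 3-fold higher in both PCa lines than in BPH-1. It measured 2.22, 3.52, 2.19 and 2.80 FPKM in BPH-1 replicates 1 to 4. In DU145 it measured 9.72, 7.23, 9.29 and 6.80, and in PC3 6.63, 7.65, 9.48 and 8.53. Every library of either PCa line lay above every BPH-1 library. The log2 fold change was 1.31 ± 0.15 (SE; limma adjusted p = 5.93e-05) in PC3 and 1.33 ± 0.18 (limma adjusted p = 1.61e-04) in DU145. PC3 and DU145 overlapped, with a difference of -0.03 ± 0.17 (log2, ± SE). In bulk libraries, fewer cells with a transcript and less of it per cell cannot be told apart. ULK1 is the most GC-rich of the 10 genes (64.1%), and with the GC trend divided out its log2 fold change was 0.57 (limma adjusted p = 0.00518) in PC3 and 0.62 (limma adjusted p = 0.0116) in DU145.

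BECN1, the scaffold of the class III PI3-kinase complexes (chromosome 17, 42810134 to 42833350, minus strand), differed from BPH-1 in opposite directions in the PCa lines. It measured 4.92, 5.54, 4.14 and 4.35 FPKM in BPH-1. It was higher in DU145, at 8.20, 6.67, 8.85 and 6.20, and lower in PC3, at 3.87, 3.56, 3.19 and 3.59. The 3 lines did not overlap one another. The largest of the differences was that between the PCa lines, with DU145 2.1-fold above PC3 (on the log2 scale -0.89 ± 0.15 for PC3 minus DU145, limma adjusted p = 0.00106). Against BPH-1 the log2 fold change was 0.56 ± 0.17 in DU145 (limma adjusted p = 0.0142) and -0.33 ± 0.12 in PC3 (limma adjusted p = 0.0322). The PC3 call was lost when any 1 of 4 libraries was left out (BPH-1 replicate 1 or 2, PC3 replicate 2 or 3, with -0.26 to -0.33). It was also lost with median-of-ratios scaling (-0.19) and with upper-quartile scaling (-0.18, limma adjusted p = 0.197). In a single fit over the 3 lines it did not pass either (limma adjusted p = 0.0585), while dividing out the GC trend gave -0.52 (limma adjusted p = 0.0035). The DU145 call was lost when the GC trend was divided out (0.35, limma adjusted p = 0.0656) and when libraries were rescaled to the same sum (0.35, limma adjusted p = 0.102). It was also lost without DU145 replicates 1 and 2 (0.56, limma adjusted p = 0.0598). BECN1 shares 300 of its 6414 exon bases with PSME3 on the opposite strand (mean FPKM 14.0 in BPH-1, 11.6 in DU145 and 8.45 in PC3). Another 795 are shared with CNTD1, also on the opposite strand, whose mean was at most 0.0112 FPKM in any line. Reads from the shared bases cannot be told apart, as strand use in the counting is not given in the sources used here.

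ATG7, the E1-like enzyme that activates ATG12 and the ATG8 proteins (chromosome 3, 11272309 to 11557665, plus strand), was lowest in BPH-1 and highest in PC3, with no overlap between any of the 3 lines. BPH-1 gave 1.69, 1.46, 1.25 and 1.36 FPKM. DU145 followed with 2.69, 2.36, 2.35 and 2.24, and PC3 with 4.88, 4.14, 5.28 and 4.99. PC3 thus stood 3.35-fold above BPH-1 and 2-fold above DU145. On the log2 scale these differences were 1.26 ± 0.11 (limma adjusted p = 1.26e-05) and 0.77 ± 0.14 (limma adjusted p = 0.00138), and both kept their call with the GC trend divided out (0.93 and 0.74). The smaller difference between DU145 and BPH-1, 0.49 ± 0.13 (limma adjusted p = 0.00861), was not called with that trend divided out (0.19, limma adjusted p = 0.126), with libraries rescaled to the same sum (0.33, limma adjusted p = 0.0538) or without DU145 replicates 1 and 2 (0.44, limma adjusted p = 0.0543). ATG7 shares 1596 of its 8833 exon bases with VGLL4 on the opposite strand, and VGLL4 was also highest in PC3 (mean FPKM 8.67, against 3.22 in BPH-1 and 3.42 in DU145). Use of strand in the counting is not given in the sources used here, so reads from the shared bases cannot be told apart.

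ATG3, the E2-like enzyme that passes ATG8 proteins to lipid (chromosome 3, 112532509 to 112562046, minus strand), was lower in DU145 than in the other lines. It measured 9.65, 8.18, 10.4 and 9.73 FPKM in BPH-1. The DU145 libraries gave 5.49, 6.67, 4.54 and 6.06, all below the lowest BPH-1 and PC3 library. PC3 gave 10.1, 8.91, 7.56 and 7.85 and overlapped BPH-1. The log2 fold change of DU145 against BPH-1 was -0.66 ± 0.16 (limma adjusted p = 0.00508), and that of PC3 against DU145 0.52 ± 0.16 (limma adjusted p = 0.0203). PC3 against BPH-1 differed by -0.13 ± 0.12 (limma adjusted p = 0.359), which did not pass. These values depended on the GC trend, and ATG3 has a GC content of 41.9%. With the trend divided out, DU145 against BPH-1 turned to 0.36 (limma adjusted p = 0.128), PC3 against BPH-1 turned to 0.74 (limma adjusted p = 0.00117) and PC3 against DU145 was 0.38 (limma adjusted p = 0.166). Even without that correction the difference between PC3 and DU145 was not called without DU145 replicates 3 and 4 (0.44, limma adjusted p = 0.0932), nor without any 1 of DU145 replicate 1, PC3 replicate 1 and PC3 replicate 2 (0.45 to 0.51). Rescaling libraries to the same sum made the PC3 difference from BPH-1 pass (-0.38, limma adjusted p = 0.0226), and median-of-ratios scaling turned it to 0.02.

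The 3 subunits of the ATG12-ATG5-ATG16L1 complex did not move together. ATG5 was lower in both PCa lines, ATG16L1 was higher in PC3 than in BPH-1, and the direction of ATG12 depended on the correction for GC content.

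ATG5, which is joined covalently to ATG12 (chromosome 6, 106045423 to 106325791, minus strand), was about 4-fold lower in either PCa line than in BPH-1. Its BPH-1 libraries lay close together at 4.69, 4.49, 5.27 and 4.79 FPKM. DU145 gave 1.02, 1.79, 0.482 and 1.39, and PC3 gave 1.82, 1.51, 0.959 and 0.83. No library of a PCa line came near the BPH-1 range. The lowest library, DU145 replicate 3, rested on 52 reads, and BPH-1 libraries on 479 to 572 reads. BPH-1 was 4.11-fold above DU145 (log2 fold change -1.46 ± 0.20, limma adjusted p = 1.64e-04) and 3.75-fold above PC3 (-1.37 ± 0.15, limma adjusted p = 4.50e-05). PC3 and DU145 differed by 0.09 ± 0.22 (log2, ± SE) and overlapped. ATG5 kept its direction and its call against BPH-1 in every alternative tried, but its size fell with the GC trend divided out, to -0.38 in DU145 (limma adjusted p = 0.0311) and -0.36 in PC3 (limma adjusted p = 0.0104). The GC content of ATG5 is 39.4%. As background, DU145 has been described as carrying ATG5 transcripts that skip coding exons. Gene-level FPKM sum all exons and do not show exon use.

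ATG16L1, which brings the ATG12-ATG5 conjugate to the membrane (chromosome 2, 233210051 to 233295674, plus strand), was higher in PC3 than in either other line. BPH-1 gave 3.24, 3.59, 4.43 and 4.27 FPKM, and DU145 2.61, 2.81, 4.84 and 2.23. PC3 gave 6.31, 9.22, 9.92 and 15.2. All PC3 libraries lay above all others, while they differed among themselves by more than any BPH-1 or DU145 libraries did. The log2 fold change of PC3 was 1.14 ± 0.22 against BPH-1 (limma adjusted p = 0.00127) and 1.42 ± 0.27 against DU145 (limma adjusted p = 0.00216). Dividing out the GC trend left 0.75 (limma adjusted p = 0.00328) and 1.40 (limma adjusted p = 2.76e-04). DU145 and BPH-1 overlapped and differed by -0.27 ± 0.21 (limma adjusted p = 0.269). That difference did pass without DU145 replicate 3, the highest library (-0.46, limma adjusted p = 0.0338), and with the GC trend divided out (-0.65, limma adjusted p = 0.00653).

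ATG12, the ubiquitin-like partner of ATG5 (chromosome 5, 115828200 to 115841858, minus strand), measured 2.61, 2.28, 2.60 and 2.42 FPKM in BPH-1. It measured 2.1, 1.77, 1.27 and 1.31 in PC3, all below BPH-1. DU145 gave 1.48, 2.82, 1.20 and 2.34 and fell on both sides of the BPH-1 values. Replicates 1 and 3, low for ATG12, are also the DU145 libraries with low values for genes of low GC content. PC3 against BPH-1 was -0.42 ± 0.13 (log2; limma adjusted p = 0.0148), and DU145 against BPH-1 was -0.27 ± 0.19 (limma adjusted p = 0.249). ATG12 has the lowest GC content of the 10 genes (38.9%), and its direction turned when the GC trend was divided out, to 0.74 in PC3 (limma adjusted p = 7.81e-04) and 1.07 in DU145 (limma adjusted p = 5.63e-05). The PC3 call was also lost with median-of-ratios scaling (-0.31, limma adjusted p = 0.055) and in a single fit over the 3 lines (limma adjusted p = 0.056). No direction is therefore given for ATG12. It shares 378 of its 8888 exon bases with AP3S1 on the opposite strand (mean FPKM 9.29 in BPH-1, 7.46 in DU145 and 9.73 in PC3). Reads from these bases cannot be told apart either.

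**Figure D2:**
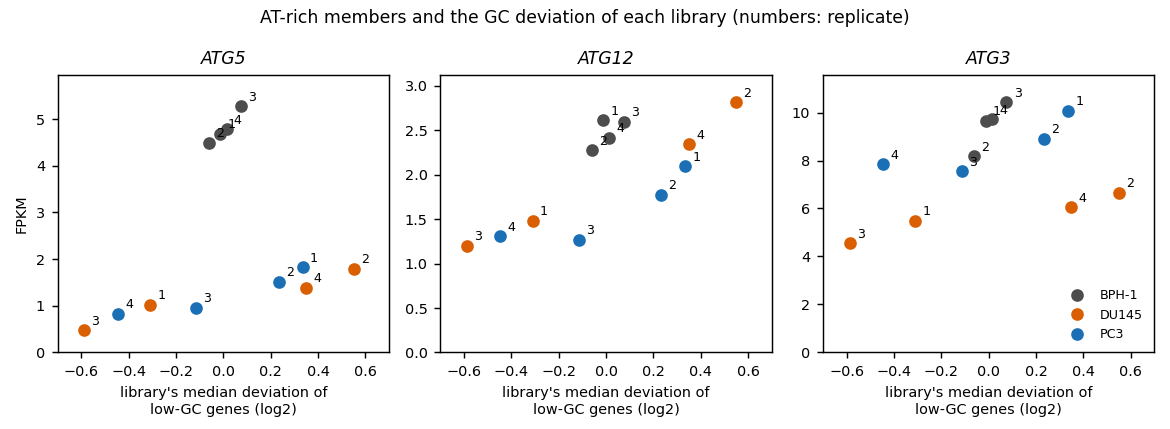
FPKM of the genes with the lowest GC content, ATG5, ATG12 and ATG3 (y axis), against the median deviation of genes under 42% GC from the other libraries of the same line (x axis, log2), for the 12 libraries (points, with replicate numbers). DU145 replicates 1 and 3 lie at the left with -0.31 and -0.59 and have the lowest DU145 values of all 3 genes, whereas BPH-1 libraries lie near 0 and stay far above the others for ATG5 alone.

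The levels of both ATG8 genes varied within lines. MAP1LC3B, whose lipidated form LC3-II marks autophagosomes (chromosome 16, 87383995 to 87404779, plus strand), passed the test in no comparison. It measured 7.88, 9.46, 3.11 and 9.61 FPKM in BPH-1, 7.72, 8.66, 7.96 and 10.3 in DU145, and 8.65, 8.38, 3.43 and 8.72 in PC3. Replicate 3 of BPH-1 and replicate 3 of PC3 lay far below the rest of their line, and the remaining 10 libraries lay between 7.72 and 10.3. The differences were -0.01 ± 0.35 for PC3 against BPH-1, 0.27 ± 0.29 for DU145 against BPH-1 and -0.28 ± 0.26 for PC3 against DU145 (log2, ± SE). Leaving out a single library moved the first of them between -0.33 and 0.26. The coding sequence of MAP1LC3B2 differs from that of MAP1LC3B by the 2 bases shown above, and the rest of their transcripts was not compared. MAP1LC3B2 had 57 to 100 reads in BPH-1, 61 to 89 in PC3 and 156 to 240 in DU145. MAP1LC3B had 354 to 1116 reads over all libraries. How reads that match both genes were assigned is not given in the sources used here.

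GABARAPL1, an ATG8 protein of the GABARAP branch (chromosome 12, 10212458 to 10223130, plus strand), was highest in DU145. It measured 2.68, 5.93, 8.44 and 5.73 FPKM in DU145. PC3 gave 0.782, 1.12, 1.25 and 1.84, all below DU145. BPH-1 gave 1.8, 0.880, 2.78 and 2.11, and its replicate 3 exceeded DU145 replicate 1. DU145 was 4.56-fold above PC3 (log2 fold change in PC3 -1.52 ± 0.29, limma adjusted p = 0.00199), a difference that kept its call in each alternative, with -1.26 when the GC trend was divided out. Against BPH-1 DU145 was 3.01-fold higher (1.18 ± 0.31, limma adjusted p = 0.00737), but the exact permutation test gave p = 0.0571 (unadjusted, two-sided; 0.0286 is the smallest this design allows), and the call was lost with the GC trend divided out (0.69, limma adjusted p = 0.0665) and without DU145 replicates 3 and 4 (0.85, limma adjusted p = 0.0713). PC3 and BPH-1 overlapped, with a difference of -0.34 ± 0.22 (limma adjusted p = 0.197). That difference passed without BPH-1 replicate 2 (-0.53, limma adjusted p = 0.0294) and with the GC trend divided out (-0.56, limma adjusted p = 0.0276). The processed pseudogene GABARAPL3 had at most 3 reads in any library.

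SQSTM1, the cargo receptor p62 (chromosome 5, 179806398 to 179838078, plus strand), was highest in DU145 and varied widely within BPH-1. BPH-1 gave 16.8 and 15.4 FPKM in replicates 1 and 2 and 40.5 and 38.0 in replicates 3 and 4. DU145 gave 115, 78.4, 87.7 and 52.2, and PC3 gave 35.5, 34.6, 37.8 and 48.4. All DU145 libraries exceeded all others, 3 PC3 libraries lay between the lower and the upper pair of BPH-1 libraries, and PC3 replicate 4 lay above both pairs. DU145 was 3.01-fold above BPH-1 (log2 fold change 1.63 ± 0.35, limma adjusted p = 0.00271) and 2.13-fold above PC3 (-1.03 ± 0.23, limma adjusted p = 0.00533). The second of these kept its call with the GC trend divided out (-0.90, limma adjusted p = 0.00284), while the first did not (0.83, limma adjusted p = 0.066). For PC3 against BPH-1 the difference was 0.60 ± 0.31 (limma adjusted p = 0.113), and it turned to -0.0769 with the GC trend divided out (limma adjusted p = 0.841). It passed without BPH-1 replicate 3 (0.82, limma adjusted p = 0.0371) and with upper-quartile scaling (0.77, limma adjusted p = 0.0462). SQSTM1 shares 1582 of 7654 exon bases with MRNIP on the opposite strand, whose mean was 1.29 FPKM in BPH-1, 1.34 in DU145 and 0.975 in PC3.

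**Figure D3:**
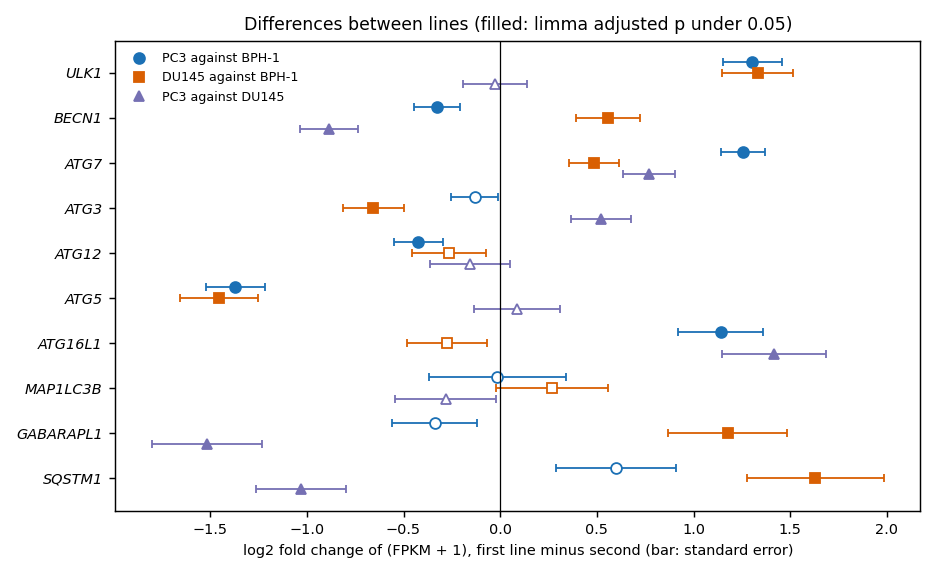
Log2 fold change of (FPKM + 1) between lines for each of the 10 genes (x axis; symbol and bar give the estimate and its standard error), with filled symbols for an adjusted p under 0.05. ULK1 and ATG5 have nearly the same value in both comparisons against BPH-1, BECN1 lies on opposite sides of 0, and MAP1LC3B is open in all 3 comparisons.

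Set side by side, BPH-1 libraries were the highest for ATG5 and the lowest for ULK1 and ATG7. The differences between PC3 and DU145 test directly whether the PCa lines differed, and they passed for ATG16L1, ATG7 and ATG3 (higher in PC3) and for GABARAPL1, SQSTM1 and BECN1 (higher in DU145). Of these 6, only the ATG3 call was lost when the GC trend was divided out. GC content followed the calls against BPH-1 over all genes. Of 5406 tested genes under 45% GC, 67.7% were lower and 9.79% higher in PC3 than in BPH-1, whereas of 4939 genes over 55% GC 20.7% were lower and 42.7% higher. With the trend divided out, 8 of the 10 genes were called in PC3 against BPH-1 (5 higher, 3 lower) and 4 in DU145 against BPH-1 (2 higher, 2 lower), beside 66.1% and 62.2% of all genes tested. Where the lines truly differ along GC content, dividing the trend out removes that difference too.

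**Figure D4:**
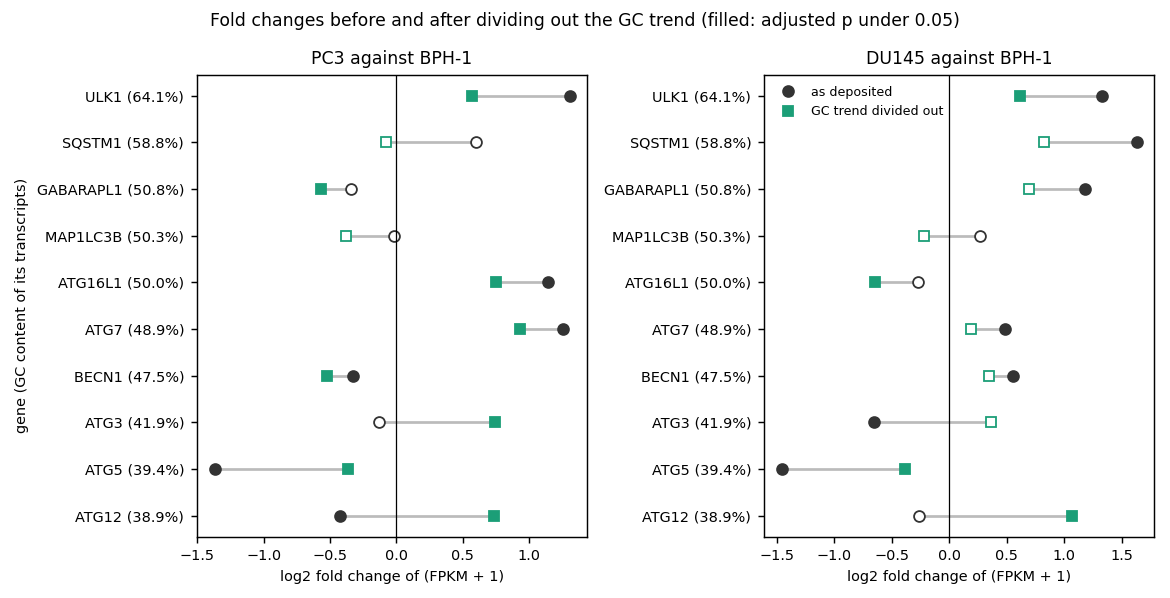
Log2 fold change against BPH-1 of each gene (rows, ordered by GC content in percent) as deposited (circles) and with each library's GC trend divided out (squares), with filled symbols for an adjusted p under 0.05. In PC3, ATG12 moves from -0.42 to 0.74 and ATG3 from -0.13 to 0.74, while ULK1 stays higher (1.31 to 0.57) and ATG5 stays lower (-1.37 to -0.36).

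To place the 10 genes in their pathway, 65 other autophagy genes were listed by role, of which 63 were tested (ATG9B and MAP1LC3C were too low). In PC3 against BPH-1, 21 were higher and 21 lower, or 66.7% of those tested. In DU145 against BPH-1, 20 were higher and 16 lower (57.1%), and in PC3 against DU145 8 were higher and 14 lower (34.9%). These shares lay close to or below those of all genes given above. Rescaling libraries to the same sum gave 12 higher and 27 lower in PC3 and 14 higher and 21 lower in DU145, and dividing out the GC trend gave 12 higher and 24 lower in PC3 and 10 higher and 19 lower in DU145. Over all genes the same rescaling gave 20.9% higher and 48.3% lower in PC3 and 24.3% and 38.6% in DU145, and the GC correction 22.7% and 43.4% in PC3 and 25.1% and 37.1% in DU145. By role, the counts against BPH-1 are given first as deposited and then with the GC trend divided out. Of the 12 cargo receptors other than SQSTM1, 2 were higher and 7 lower in PC3 (2 and 5 with the GC trend divided out), beside 40.4% of all genes lower, and 3 were higher and 3 lower in DU145 (2 and 1). Membrane supply and PI3P effectors had 6 of 11 higher and 3 lower in PC3 (3 and 3), and 4 higher and 2 lower in DU145 (3 and 3). Of the 5 initiation kinase genes other than ULK1, 1 was higher and 1 lower in PC3 (1 and 4), and 2 were higher and 1 lower in DU145 (1 and 2). Of 7 genes of the class III PI3-kinase complexes other than BECN1, 2 were higher and 2 lower in PC3 (2 and 2), and 1 was higher and 2 lower in DU145 (0 and 3). Of the other genes listed with ATG12 conjugation, ATG10 and TECPR1 were higher in both PCa lines with and without the correction, whereas ATG16L2 was higher in DU145 as deposited (0.32) and not with the GC trend divided out (-0.0351, limma adjusted p = 0.807). Of the other 9 genes of the ATG8 family and its processing, 3 were higher and 1 lower in PC3 (1 and 0), and 3 higher and 2 lower in DU145 (0 and 2). Of 7 genes of fusion with the lysosome, 3 were higher and 2 lower in PC3 (0 and 2), and 1 higher and 3 lower in DU145 (1 and 4). Of 11 upstream regulators, 2 were higher and 5 lower in PC3 (1 and 8), and 3 higher and 3 lower in DU145 (1 and 4). As over all genes, direction followed GC content in this wider list of 73 tested genes, which includes the 10. Among its 23 genes under 45% GC, 1 was higher and 16 lower in PC3 than in BPH-1. Of all genes under 45% GC, 9.79% were higher and 67.7% lower. With the GC trend divided out 7 of the 23 were higher and 10 lower (all genes under 45% GC, 26.2% and 40.5%).

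RB1CC1 (FIP200), the scaffold of the kinase complex in which ULK1 acts, had the largest difference against BPH-1 on the log2(FPKM + 1) scale in both PCa lines among the other listed genes with at least 100 reads. It measured 9.74 to 11.4 FPKM in BPH-1, 0.360 to 1.90 in DU145 and 0.0714 to 0.578 in PC3. At the mRNA level the kinase was thus higher and the scaffold lower in both PCa lines, with log2 fold changes of RB1CC1 of -3.25 ± 0.14 in PC3 (limma adjusted p = 1.20e-07) and -2.50 ± 0.24 in DU145 (limma adjusted p = 1.48e-05). Dividing out the GC trend left -2.80 and -1.59. ATG101, which stabilises ATG13 in that complex, was higher in DU145 (8.26 FPKM in BPH-1 and 29.6 in DU145; log2 fold change 1.70 ± 0.19, limma adjusted p = 4.72e-05), by 0.92 with the GC trend divided out. PIK3R4 (VPS15), a partner of BECN1, was lower in DU145 (9.0 against 1.5 FPKM; -2.19 ± 0.37, limma adjusted p = 5.67e-04), and its DU145 libraries ran from 0.172 to 2.79 FPKM. ATG2B, a lipid transfer protein, was lower there as well (-2.02 ± 0.30, limma adjusted p = 2.74e-04). With the GC trend divided out PIK3R4 gave -1.84 and ATG2B -1.74. As deposited, ATG101 (1.001), PIK3R4 (-1.63) and ATG2B (-1.81) were called in the same directions in PC3 against BPH-1. These PC3 calls were kept with the GC trend divided out (0.33 for ATG101, limma adjusted p = 0.0366, -1.25 for PIK3R4 and -1.51 for ATG2B).

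In PC3 against BPH-1, ZFYVE1 (DFCP1, a PI3P-binding marker of the omegasome) was higher by 1.40 ± 0.17 (log2), the PI3P effector WIPI1 by 1.18 ± 0.23 and FKBP8, a mitophagy receptor, by 1.16 ± 0.11. TAX1BP1, a ubiquitin-binding receptor like SQSTM1, was lower (-2.16 ± 0.24), as was PRKAA1, a catalytic subunit of AMPK (-2.01 ± 0.29). Dividing out the GC trend left 0.26 for FKBP8 (limma adjusted p = 0.0316), which has a GC content of 65%, and -0.74 for PRKAA1. It gave 0.96 for ZFYVE1, 0.83 for WIPI1 and -1.16 for TAX1BP1. As deposited, WIPI1 (0.90), FKBP8 (1.03), TAX1BP1 (-1.49) and PRKAA1 (-1.79) were called in the same directions in DU145 against BPH-1. These DU145 calls were lost with the GC trend divided out (0.51, 0.17, -0.27 and -0.37). ZFYVE1 did not pass in DU145 either way (0.34 and -0.21). In DU145 against BPH-1, SNAP29, a SNARE of autophagosome fusion, was higher by 1.43 ± 0.23 and the receptor OPTN by 1.40 ± 0.27 (1.07 and 1.33 with the GC trend divided out). PC3 and DU145 differed most in VAMP8, the lysosomal SNARE of that fusion, at 34.1 to 49.1 FPKM in PC3 and 5.07 to 9.71 in DU145 (2.33 ± 0.23, limma adjusted p = 3.77e-05). ATG4A, a protease that processes ATG8 proteins, and NRBF2, a subunit of the BECN1 complex, were also higher in PC3 than in DU145 (1.51 ± 0.19 and 1.39 ± 0.29). SNAP29 (-1.68 ± 0.21), TFE3 (-1.50 ± 0.20) and OPTN (-1.25 ± 0.22) were lower in PC3 than in DU145. These 6 differences between the PCa lines moved little when the GC trend was divided out (2.45 for VAMP8, 1.55 for ATG4A, 1.27 for NRBF2, -1.62 for SNAP29, -1.36 for TFE3 and -1.30 for OPTN). Values of ATG101, PIK3R4 and ATG2B in PC3 and of ZFYVE1, WIPI1, FKBP8, TAX1BP1 and PRKAA1 in DU145 are given as deposited and GC-corrected only. The other differences named in these 2 paragraphs kept their direction and their call in each alternative fit. Exact permutation tests were run for the 10 genes only.

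**Figure D5:**
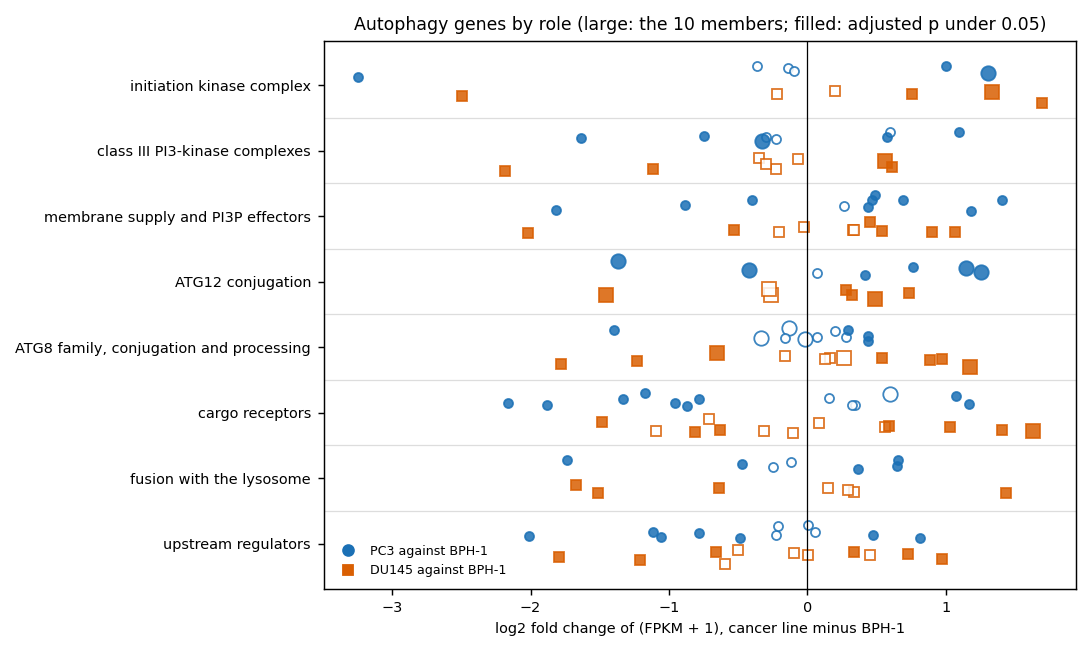
Log2 fold change of (FPKM + 1) against BPH-1 (x axis) of the 73 tested autophagy genes by role (rows), for PC3 (circles) and DU145 (squares), with large symbols for the 10 genes and filled symbols for an adjusted p under 0.05. Every role holds genes on both sides of 0 in at least 1 comparison, and RB1CC1 lies farthest left at -3.25 in PC3.

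For each of the 10 genes, the most similar of the other listed genes was found by the root mean square difference of centred log2(FPKM + 1) over the 12 libraries, among 72 genes compared. The closest pairs were BECN1 with WDR45 (0.13), ATG3 with MTOR (0.15), ATG12 with UVRAG (0.16), ULK1 with FKBP8 (0.19) and ATG5 with ATG4C (0.19). The root mean square of the centred values of the genes themselves was 0.39 for BECN1, 0.32 for ATG3, 0.28 for ATG12, 0.65 for ULK1 and 0.71 for ATG5. ATG7 (0.23) and ATG16L1 (0.33) were both closest to ZFYVE1, SQSTM1 to ATG101 (0.41) and GABARAPL1 to TFE3 (0.43). For MAP1LC3B the nearest gene, GABARAPL2, was hardly nearer (0.44) than a gene with no variation (0.45). Likeness here describes 12 libraries of 3 lines that also share depth and GC trend.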

How the data were processed

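RNA-sequencing of 12 libraries (BPH-1, DU145 and PC3, 4 of each) from total RNA was analysed. Each column was assigned to its line by its name, with 0 unassigned. The table that the authors deposited gives 58302 genes at GRCh38 positions in normalized units, and these were read as FPKM, since no unit stands in its header. The submitters' processing notes name CASAVA 1.8, HISAT2 2.1.0 and edgeR without their roles, and strand use is not given in the sources used here. With gene length as the sum of distinct exons of GENCODE 29, between 93.2% and 94.4% of low values of protein-coding genes were whole reads (within 0.05 reads), and the depth of each library (12950665 to 16309559) followed from them. The length of ATG5 was 7861 bases in GENCODE 29 and 6988 from the values. The latter was used for its reads and for its level on merged exons.

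Log2(FPKM + 1) of the 2 lines compared was tested with limma 3.58.1 (R 4.3.3; empirical Bayes with a mean-variance trend). A gene entered where 4 libraries reached 10 reads, scaled to the median depth, and all together 15 reads. P-values were two-sided and Benjamini-Hochberg adjusted over all genes tested. Fold changes on this scale understate those of low genes. Of 200 genes changed in simulated data (100 by each size), all 4-fold and 54% to 60% of 2-fold changes were recovered. The fits to simulated data called 163 to 168 genes in all, and the reported fits called 7937 to 11088. Recovery at the reported share of calls was not tested. Tables and figures were made with Python 3.11.15, numpy 2.4.6, pandas 2.3.3, scipy 1.17.1 and matplotlib 3.10.9.

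The members and lists were chosen with earlier results of these data known. Named are all 10 members, their nearest gene by profile, and per comparison the 3 other autophagy genes highest and the 3 lowest in log2 fold change among those called, without overlap and with a mean of at least 100 reads. Alternatives were other filters, pseudocount, scalings, voom on recovered reads, a GC correction (spline with 5 degrees of freedom, genes with at least 50 reads), the replicate block, a fit over 3 lines, exact permutation tests, a fold threshold and leaving out libraries. Leaving out pairs of DU145 libraries was added after the data were seen. Replicate numbers were not shown to pair libraries. Correlations of deviations ran from -0.695 to 0.558 for the same number and from -0.693 to 0.731 for different numbers, which cannot decide whether libraries were paired.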

Additional observations from a re-analysis of the deposited data

Results flagged for a closer look

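MAP1LC3B in PC3 replicate 3, at 3.43 FPKM, lay apart from the other 3 PC3 libraries (8.38 to 8.72). Its gap to the nearest of them was 0.935 of the range of the line, above the critical value of Dixon's test for a group of 4. This was the only library set apart in this way among 30 groups of 4 tested, and chance gives about 5% of groups. BPH-1 replicate 3 was nearly as low (3.11 FPKM) but did not pass that limit.

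The difference from BPH-1 itself differed between the PCa lines for 6 genes, which is the test of PC3 against DU145. The log2 fold change against BPH-1 in PC3 minus that in DU145 was -0.89 for BECN1 (limma adjusted p = 0.00106), 0.77 for ATG7 (limma adjusted p = 0.00138), 0.52 for ATG3 (limma adjusted p = 0.0203), 1.42 for ATG16L1 (limma adjusted p = 0.00216), -1.52 for GABARAPL1 (limma adjusted p = 0.00199) and -1.03 for SQSTM1 (limma adjusted p = 0.00533). BECN1 is the gene of these called in opposite directions against BPH-1, but each of these calls was lost in several of the alternatives given above.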

How the results depend on the processing

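In all, 12 libraries of 3 lines limit what can be said: each line is 1 source, its libraries may be technical repeats, and the permutation test of 4 against 4 cannot go below p = 0.0286. Low genes are limited by depth, with 52 reads for ATG5 in DU145 replicate 3. With a fold threshold added (absolute log2 fold change over 1), calls among the 10 genes fell to 4 in DU145 against BPH-1 and 3 in PC3 against DU145 (all genes, 28.8% and 19.3%). Those among the other autophagy genes fell to 18 in PC3 against BPH-1 (all genes, 27.0%), 16 in DU145 against BPH-1 and 8 in PC3 against DU145. Dividing out the GC trend left 4 of the 10 genes called in DU145 against BPH-1, beside 62.2% of all genes. Leaving out 1 library at a time gave 5 to 7 of the 10 genes and 38 to 44 of the others in PC3 against BPH-1, 7 to 8 and 28 to 38 in DU145 against BPH-1, and 5 to 6 and 18 to 24 in PC3 against DU145. Over all genes, these fits called 4194 to 4519 higher and 6268 to 6822 lower of 16696 to 16878 in PC3 against BPH-1. For DU145 against BPH-1 they called 4592 to 5502 higher and 5026 to 5957 lower of 17362 to 17437. For PC3 against DU145 they called 2832 to 3373 higher and 4185 to 4866 lower of 16696 to 16915. Without DU145 replicates 1 and 2, or 3 and 4, 5 and 6 of the 10 genes were called in DU145 against BPH-1, beside 54.9% and 53.2% of all genes. The remaining counts stayed within 1.5 times those reported.

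Directions turned as follows, and the cause was not tested. With the GC trend divided out, PC3 against BPH-1 gave 0.74 for ATG3, 0.74 for ATG12 and -0.0769 for SQSTM1, and DU145 against BPH-1 gave 0.36 for ATG3, 1.07 for ATG12 and -0.22 for MAP1LC3B. Median-of-ratios and upper-quartile scaling gave 0.0207 and 0.0298 for ATG3 and 0.13 and 0.14 for MAP1LC3B in PC3 against BPH-1, and 0.0708 and 0.0371 for ULK1 in PC3 against DU145. Leaving out 1 library moved MAP1LC3B between -0.33 and 0.26 in PC3 against BPH-1 and between -0.0518 and 0.40 in DU145 against BPH-1, and in PC3 against DU145 it moved ULK1 between -0.10 and 0.054 and ATG5 between -0.0838 and 0.22. Without DU145 replicates 1 and 2 ULK1 was 0.00824, and without replicates 3 and 4 ATG5 was -0.0818 in that comparison. Of these values, only ATG12 in PC3 and ATG3 in DU145, both against BPH-1, had passed the test as reported. The median of all genes in PC3 against BPH-1 was -0.13 as deposited and -0.29 once every library had 1 common sum, and in DU145 against BPH-1 it was -0.03 and -0.17.

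With the replicate number as a block, 6 of the 10 genes and 41 of the others were called in PC3 against BPH-1, 7 and 35 in DU145 against BPH-1, and 5 and 17 in PC3 against DU145, beside 65.4%, 59.5% and 41.1% of all genes. The block took BECN1 (limma adjusted p = 0.0581) out of the calls and brought SQSTM1 (limma adjusted p = 0.0474) into those of PC3 against BPH-1, and took ATG3 (limma adjusted p = 0.0586) out of those of PC3 against DU145. The numbers are not shown to pair the libraries.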
